A study of Mus musculus with 16 samples.

Results

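Among the 55681 non-control probes on the array are some that carry no gene name and are identified only by a chromosome interval with a strand mark. These interval probes are the subject here. Without 577 on the X chromosome, they came to 15617 autosomal probes in 4432 different intervals. In this count and the next, the same coordinates with different strand marks count as different intervals. To be kept, a probe had to be well above background on every array of 1 or more of the groups of 4, and 5250 interval probes (33.6%) in 2535 intervals met that rule. Intervals that overlapped, whatever their strand mark, were taken as 1 locus, and the kept probes fell in 1403 of 2126 loci. Against them stood 18023 kept probes of 26695 (67.5%) with an NM_ accession, the RefSeq prefix of protein-coding transcripts, and 533 of 1472 (36.2%) with an NR_ accession, that of non-coding transcripts.

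Ventricular tissue came from 16 female mice in 4 groups of 4, with 1 mouse on each array. The groups were nulliparous wild-type (Npr1+/+), wild-type in week 2 of lactation, nulliparous knockout (Npr1-/-), and knockout in week 2 of lactation. Npr1 encodes the guanylyl cyclase receptor through which the heart's natriuretic peptides raise cGMP, and the series title concerns excess growth of the heart during lactation when that signal is impaired. Age, strain and how the deletion was made are not given in the sources used here. The array's Npr1 probe lay well above background on 1, 3, 2 and 3 of the 4 arrays of nulliparous wild-type, lactating wild-type, nulliparous knockout and lactating knockout, and its levels overlapped between the groups. It was not tested and checks no label.

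Long intergenic transcripts are RNAs without a long reading frame that are made from stretches between protein-coding genes. Many are spliced and polyadenylated like messenger RNAs, most are less abundant than messenger RNAs, and many are made in few tissues. Some act on nearby genes or as scaffolds for protein complexes, and most have no known role. In heart, Malat1 and Meg3 are examples with names. An interval probe measures whatever labelled RNA binds it. Neither the transcript nor the host or neighbour genes of an interval can be given here, because the intervals are in mm9 coordinates (per the file headers) and the gene table used for names is on another build. What the marks F and R state about the labelled strand is not given in the sources used here.

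All levels are on a log2 scale, relative to the 75th percentile of that array's non-control probes. Levels of different probes are not compared one with another, since binding differs between probes. Changes are differences of group means on that log2 scale ± standard error (SE) from 1 limma fit over 28785 kept probes, with n = 4 mice per group, and a probe is called where its p, adjusted by the Benjamini-Hochberg method, is under 0.05. Where no array of a group was well above background, a fold is a lower limit, set against the dimmest signal still well above background. Below that signal the order of values has no meaning. A probe that passed the background rule only through the group where it is high had to differ, so its p is printed as the fit gave it and is no support for the change. Among the named probes with a change printed for that group, this holds for A_30_P01019807, A_30_P01027458, A_30_P01019822, A_30_P01023396, A_30_P01018904, A_30_P01019593 and A_30_P01021569.

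Facts of the whole series bear on these values. That 75th percentile, as a signal, ranged from 165 to 221 on 7 of the 8 nulliparous arrays and 278 to 347 on the 8 lactating arrays. Nulliparous knockout replicate 4 stood apart at 284, within the lactating range. On an array 30.0% to 43.1% of the interval probes lay well above background, against 63.6% to 72.0% of the NM_ probes. All 8 ventricular cardiomyocyte markers were measured, and their summed linear level was 8629 to 10376 in nulliparous wild-type, 7751 to 8359 in lactating wild-type, 8152 to 11081 in nulliparous knockout and 6614 to 7595 in lactating knockout. The 7 macrophage markers all rose in both lactation comparisons, with summed levels of 24.9 to 29.6, 47.8 to 55.0, 22.3 to 44.1 and 54.9 to 65.6 in the same order of groups. Of the 5 proliferation markers, 4 rose in wild-type and 5 in knockout. Nulliparous knockout replicate 4 held the highest macrophage sum (44.1) and the highest proliferation sum (4.64) of its group, where the other arrays reached at most 29.8 and 1.82. Markers of atrium, fibroblasts, endothelium, smooth muscle, T and B cells, red cells, mesothelium, mammary tissue and skeletal muscle were measured too. Red cell sums were 247 to 316 in nulliparous wild-type and 380 to 497 in lactating wild-type, and 260 to 312 and 415 to 570 in knockout. The 7 fibroblast markers had 4 higher and 1 lower in wild-type lactation and 4 higher in knockout. Adipocyte sums did not overlap between genotypes, at 3.24 to 5.52 and 4.06 to 10.4 in nulliparous and lactating wild-type and 0.782 to 1.70 and 0.306 to 0.522 in nulliparous and lactating knockout. Atrial sums were 198 to 360 and 409 to 758 in nulliparous and lactating wild-type and 223 to 719 and 477 to 1135 in knockout. Most of the 4 atrial markers did not follow these sums. In wild-type lactation 1 was higher and 2 lower (median change -1.82), and in knockout 1 was higher and 3 lower (median change -2.41). Mesothelial sums were 0.103 to 1.88 and 2.90 to 7.04 in wild-type and 2.04 to 3.17 and 3.79 to 4.34 in knockout. Skeletal muscle sums were 67.0 to 77.7 and 176 to 273 in wild-type and 65.9 to 121 and 266 to 463 in knockout, with Myh4 above background on no array. The endothelial, smooth muscle and T and B cell sums overlapped between nulliparous and lactating mice in knockout. In wild-type the endothelial and smooth muscle sums overlapped too. The T and B cell sums there did not, at 2.28 to 3.05 in nulliparous and 1.855 to 2.18 in lactating mice. The part of these shifts in the changes below was not tested. The milk protein genes Csn2 and Wap were well above background on no array.

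The interval probes were a dim set. Across the array 3798 of them (24.3%) passed the background mark on each of the 16 arrays and 6345 (40.6%) on none, against 60.3% and 20.2% of the NM_ probes. The median level of the kept members was -2.11, with quartiles of -3.14 and -0.64. A median of 0.58 applied to the kept NM_ probes and -1.15 to the NR_ probes. Intervals were 62 to 7128487 bases long (median 10745), and the longest was chr7:39351858-46480344. Counted by mark as above, each held 1 to 10 probes, with a median of 3. Counted in that way, all probes were kept in 767 intervals, some in 1768 and none in 1897. The share kept changed little with interval length, from 31.9% in the shortest intervals (62 to 1790.5 bases) to 35.9% in the next length class. It was 31.4% for 7890 probes marked F and 35.9% for 7714 marked R.

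The first question was which interval signals differed between lactating and nulliparous ventricles in each genotype. In wild-type mice 2162 of the 5250 members (41.2%) were called, 701 higher and 1461 lower in lactation, where 48.4% of all kept probes were called, 26.3% higher and 22% lower. In knockout mice 2239 members (42.6%) were called, 464 higher and 1775 lower, where 44.2% of all kept probes were called, 20.6% higher and 23.6% lower. Among members called, 32.4% were thus higher in wild-type and 20.7% in knockout, whereas 62.6% and 57.9% of the called NM_ probes were higher. The median change of the members was -0.16 in wild-type and -0.27 in knockout, against 0.10 and 0.06 for NM_ probes. In bulk tissue, fewer cells of a type and less RNA per cell cannot be told apart. Changes past 2-fold were called higher for 191 members and lower for 455 in wild-type, and for 99 and 514 in knockout. Of all 28785 kept probes, 1876 and 1611 were so called in wild-type and 1123 and 1494 in knockout.

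The balance of directions moved with the scaling. Centring each array on its median gave 1092 higher and 1005 lower in wild-type and 730 and 1194 in knockout. That centring moved the median change of all kept probes from 0.02 to 0.21 in wild-type and from -0.03 to 0.15 in knockout, and relative to this shift the members' median of 0.02 in wild-type lay below it. Normexp background correction gave 454 higher and 2388 lower in wild-type and 322 and 3013 in knockout. The share of calls that were higher was smaller for the interval probes than for the NM_ probes under each of these scalings, at 52.1% against 79.3% with median centring, 15.97% against 57.2% with normexp and 41.1% against 59.4% with quantile normalization in wild-type. The 75th percentile itself differed between nulliparous and lactating arrays, as given above, and its part in the split was not tested.

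The arrays lay on 2 slides, with replicates 1 and 2 of every group on the first and 3 and 4 on the second. Each group had its own place on both slides, so place and group cannot be told apart. With slide as a block 2231 members were called in wild-type lactation and 2314 in knockout. Within the first slide, with 2 mice per group, the counts were 1727 and 2116, and within the second, which holds nulliparous knockout replicate 4, they were 36 and 1. Of all kept probes 10798 and 12304 were called within the first slide, 151 and 4 within the second, and 14223 and 13096 with the block. The median change was alike on both slides, at -0.19 and -0.14 in wild-type and -0.27 on each in knockout. Genotype comparisons had 5 calls in nulliparous and 5 in lactating mice with the block, 7 and 2 within the first slide, and 10 and 2 within the second. Over all kept probes, in the same order, the counts were 23 and 40, 16 and 19, and 39 and 10.

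The split was compared at like brightness, since interval probes are dimmer. Among members whose mean level over the 16 arrays was above 0, 25.9% were called higher and 29.6% lower in wild-type lactation, against 36.2% and 18.3% of NM_ probes in that band. In knockout these shares were 19.5% and 35.7% for members and 28.0% and 19.5% for NM_ probes. Among members below -3, 9.01% were higher and 19.9% lower in wild-type, against 20.4% and 14.6% of NM_ probes. With normexp correction the bright band held 28.8% higher and 28.6% lower members in wild-type, against 41.8% and 15.6% of NM_ probes, while below -3 the higher members came to 0.394% and the lower to 58.5%. The bright band therefore kept a larger share of lower calls for members than for NM_ probes under both corrections, and the dimmest band depended on the correction.

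**Figure D1:**
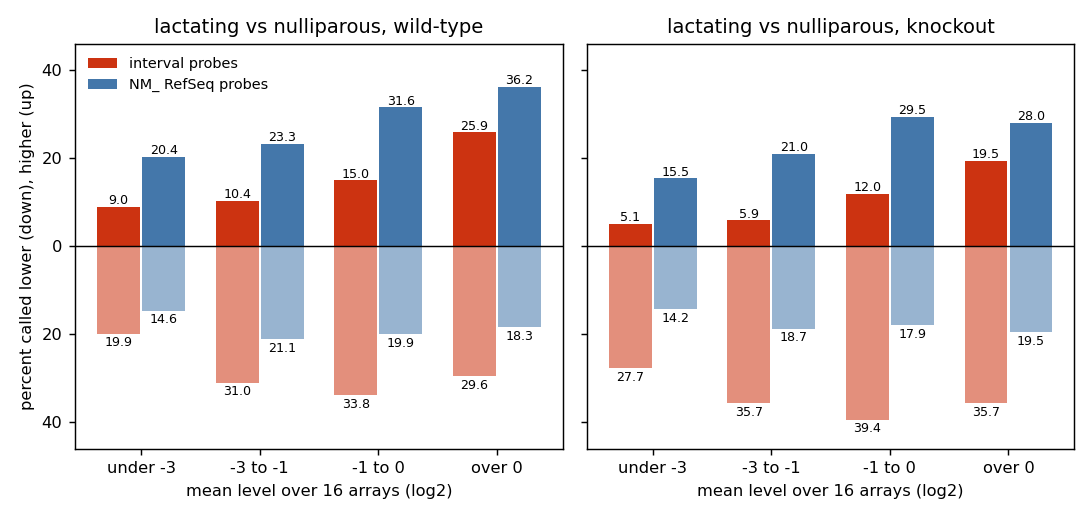
Percent of kept probes called higher (bars up) and lower (bars down, paler) in lactation, for interval probes (red) and NM_ RefSeq probes (blue), in 4 bands of mean level over the 16 arrays, for wild-type on the left and knockout on the right. In each band of both panels, a larger share of interval probes than of NM_ probes was called lower and a smaller share higher.

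Called members lay on every autosome. The share called in wild-type ran from 31.8% on chromosome 17 to 50.2% on chromosome 3, and in knockout from 36.4% on chromosome 5 to 49.7% on chromosome 16. Shares by strand mark were 15.1% higher and 25.2% lower for F and 11.8% and 30.2% for R in wild-type, with medians of -0.10 and -0.21. Members of the shortest intervals had a median change of -0.25 in wild-type and -0.38 in knockout, and those of the longest (over 25940 bases) -0.14 and -0.25.

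The wild-type and knockout comparisons share no array. Of the members called in wild-type, 73.4% were called in knockout too, and of those called in knockout, 70.9% were called in wild-type. These 1587 members comprised 391 higher in both, 1190 lower in both and 6 in opposite directions. Across the 5250 members the 2 changes correlated at r = 0.77, where members of 1 interval are not independent. Nulliparous knockout replicate 4 lay between the states. Over 646 members changed more than 2-fold in wild-type, a set chosen by the change among wild-type arrays and by a fit and filter that used all 16, it had covered a median of 0.66 of the way from the other nulliparous knockout arrays to the lactating knockout mean. Without it 2635 members were called in knockout lactation (568 higher, 2067 lower) and 2324 in wild-type. Of all kept probes 15338 and 14866 were then called.

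**Figure D2:**
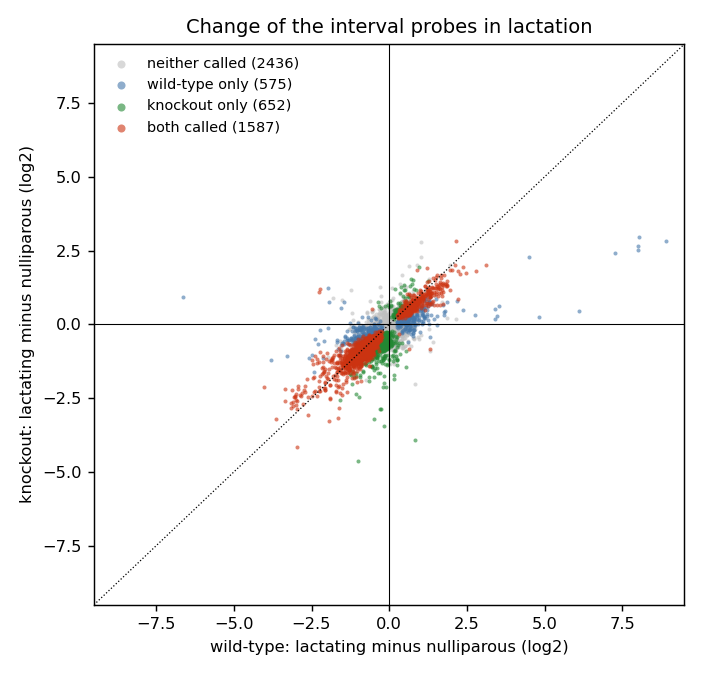
Change in lactation of each of the 5250 interval probes in wild-type (horizontal) and knockout (vertical), in log2 units, coloured by where it was called, with equal change on the dotted line. Most called probes lie near the line, 1587 were called in both, and the group at the far right with changes of 7.25 to 8.92 in wild-type is the chromosome 17 set.

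Called probes of 1 interval and strand mark mostly moved the same way. In wild-type 495 intervals, counted by mark, had 2 or more called probes. In 83.6% of them all called probes shared a direction, 111 higher and 303 lower. In knockout this held for 89.8% of 527 intervals, 81 higher and 392 lower. Called members were mostly lower, with 32.4% higher in wild-type and 20.7% in knockout. Unrelated called probes would thus often share a direction too, and how far these shares exceed that was not tested. Direction was less uniform across strand marks. With both marks of the same coordinates taken as 1 interval, 446 had kept probes on both. Of these, 140 had called probes on both in wild-type. The marks moved alike in 69, in opposite directions in 39 and in a mixed way in 32. In knockout the counts were 109, 33 and 21 of 163.

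The locus with the most kept probes was chr16:43623175-43642715, where all 26 probes on the array were kept. None was higher in lactation, 18 were lower in wild-type and 20 in knockout, with a median change of -0.69 and -0.74. Its 16 probes marked F had a median of -0.85 in wild-type with 15 lower, and its 10 marked R a median of -0.21 with 3 lower. At chr6:31017987-31293337, with 23 of 36 probes kept, the marks diverged. There 5 of 10 kept F probes were higher and 1 lower in wild-type, whereas 0 of 13 R probes were higher and 8 lower, and in knockout the counts were 5 and 1 for F and 0 and 9 for R. At chr3:126989696-127201919 the 15 kept R probes were all lower in wild-type (median -1.35) and 11 were lower in knockout (median -1.03), and 2 of 6 F probes were lower in each. At chr13:28477490-28985604 the 20 kept R probes had 9 lower and 1 higher in wild-type and 14 lower in knockout. At chr19:5771425-5848475, 8 of 25 kept probes were lower and 2 higher in wild-type, and 15 were lower in knockout. The remaining locus, chr13:94180737-94203935, kept 23 of 50 probes and had 4 higher and 1 lower in wild-type and 6 lower in knockout.

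The largest rise in wild-type lactation was an on and off signal on chromosome 17. Probe A_30_P01019807, interval chr17:32035750-32056000 with mark R, read -4.87, -6.10, -4.83 and -5.92 in nulliparous wild-type and 3.67, 3.82, 4.45 and 2.01 in lactating wild-type mice. It read -5.86, -5.46, 2.87 and 2.24 in nulliparous knockout and 4.56, -5.11, 2.00 and 3.62 in lactating knockout. It passed the background rule only through lactating wild-type. All 4 nulliparous wild-type arrays were below background and all 4 lactating ones bright, while the knockout groups each held both kinds, with 2 of 4 nulliparous and 3 of 4 lactating arrays bright. The wild-type change was 8.92 ± 2.12 (adjusted p = 0.00341), at least 247-fold higher, and the change was 5.38 with normexp correction, which adds an offset of 50 to each spot and so shrinks differences of dim spots. In knockout the change of 2.82 ± 2.12 was not called (adjusted p = 0.295), but it was called without lactating knockout replicate 2 (4.95, adjusted p = 0.0448). It was 1.39 without nulliparous knockout replicate 1 (adjusted p = 0.64), and 5.39 and 0.26 within the first and second slide. The other 4 kept R probes of this locus, 1 in the same interval and 3 in chr17:32044823-32045974, passed through the same group and followed the same arrays, with wild-type changes of 7.25 to 8.05. The kept F probe of the locus, A_30_P01029079, did not follow them, at -2.87 to -2.02 on all 16 arrays.

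**Figure D3:**
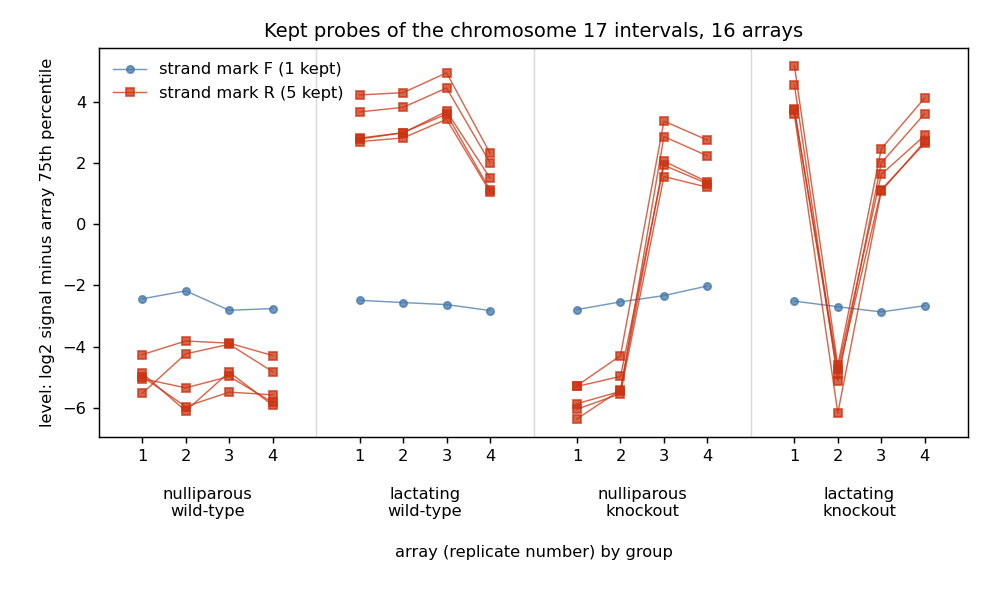
Levels (log2, relative to the 75th percentile) of the 6 kept probes of the chromosome 17 intervals on each of the 16 arrays by group, with lines joining the values of 1 probe within a group and no order meant among arrays. The 5 probes marked R sit at or below -3.82 on all nulliparous wild-type arrays, nulliparous knockout arrays 1 and 2 and lactating knockout array 2, and at or above 1.06 on the other 9 arrays, and the probe marked F stays between -2.87 and -2.02.

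The next largest rise was in the chromosome 3 interval taken up below, and 4 further rises in wild-type follow. Probe A_30_P01019266, interval chr6:35201798-35217831 mark F, was not well above background on any nulliparous wild-type array (-6.20, -5.43, -5.63, -5.88) and read 0.09, -4.45, -0.55 and -0.30 in lactation, a rise of at least 8.87-fold (change 4.49 ± 1.18, adjusted p = 0.00643). It was 5.54 without lactating wild-type replicate 2, the low array. Probe A_30_P01027458, interval chr2:143992000-143992611 mark F, was likewise below background on all nulliparous wild-type arrays and above it on all lactating ones, the group through which it was kept, at least 9.11-fold higher (adjusted p = 0.00915), and in each knockout group it was well above background on 2 of 4 arrays. With normexp correction these changes were 1.41 and 1.29.

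A rise in both genotypes was seen at chr2:155269145-155303251 mark F. Its probe A_30_P01031749 read -3.92, -4.49, -4.07 and -4.46 in nulliparous wild-type and -0.98, -1.28, -0.95 and -1.27 in lactating wild-type. In knockout it read -3.56, -4.36, -3.75 and -2.30, and then -1.77, -0.78, -1.86 and -1.49. The groups did not overlap within either genotype, with changes of 3.11 ± 0.34 (adjusted p = 7.85e-05) and 2.02 ± 0.34 (adjusted p = 0.000871). The 3 other kept probes of the interval and mark rose as well, by 2.21 to 2.80 in wild-type and 1.73 to 1.81 in knockout. Nulliparous wild-type held only 1 array well above background for this probe, and with normexp correction the changes were 1.13 and 0.68.

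A bright rise was found at chr13:21856097-21859200 mark R, where 1 probe was kept. Probe A_30_P01023737 read 1.64, 1.80, 2.21 and 1.65 in nulliparous wild-type and 3.92, 4.53, 4.47 and 3.90 in lactating wild-type. Its knockout values were 2.20, 2.83, 2.45 and 3.11 in nulliparous mice and 2.82, 3.96, 2.49 and 3.20 in lactating mice. The wild-type groups lay apart and the knockout groups overlapped. The change was 2.38 ± 0.28 (5.22-fold, adjusted p = 0.000106) in wild-type and 0.47 ± 0.28 (adjusted p = 0.191) in knockout, and the interaction of -1.91 ± 0.40 was not called (adjusted p = 0.214).

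In knockout lactation the largest rises were of dim probes. Probe A_30_P01018593 at chr9:14460976-14488051 mark F rose by 2.81 ± 0.52 (adjusted p = 0.00131), with 1 of 4 nulliparous knockout arrays well above background and a change of 0.52 with normexp, and the 4 other kept probes of its interval and mark rose too, by 1.68 to 2.03. Probe A_30_P01017743 at chr10:83181374-83249774 mark F read -3.52, -2.52, -3.18 and -2.19 in nulliparous knockout and -0.67, -0.85, -1.46 and -1.08 in lactating knockout. These values do not overlap, and the change was 1.84 ± 0.27 (adjusted p = 0.00053) and 0.77 with normexp, with 1.02 to 1.40 for the 4 other probes there. In wild-type the same 5 probes rose by 1.52 to 2.02. The remaining 3 rises named by the rule became smaller still with normexp. At A_30_P01018904 (chr8:124697835-124699013 mark F) a rise of at least 2.15-fold had a change of 0.06 with normexp (adjusted p = 0.729). At A_30_P01028400 (chr6:13801450-13853450 mark F) a change of 1.72 became -0.02 (adjusted p = 0.834), and at A_30_P01023201 (chr2:157838320-157853495 mark F) a change of 1.83 became 0.34 and stayed called (adjusted p = 0.0048).

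The largest fall in wild-type lactation was again an on and off signal. Probe A_30_P01029748 at chr3:85571525-85645700 mark F read -0.30, 0.24, 0.43 and 0.84 in nulliparous wild-type and -6.66, -6.28, -6.66 and -5.71 in lactating wild-type. In nulliparous knockout it read 0.79, 0.73, -6.45 and 0.37, and in lactating knockout -0.65, 0.12, 0.09 and -0.37. It was therefore below background on all 4 lactating wild-type arrays and on nulliparous knockout replicate 3, and present on the other 11. The wild-type change was -6.63 ± 1.17 (adjusted p = 0.000513), at least 36.6-fold lower, and -2.72 with normexp. The knockout change was 0.94 ± 1.17 (adjusted p = 0.538). Lactating knockout exceeded lactating wild-type by 6.13 ± 1.17, at least 25.8-fold, which missed the threshold (adjusted p = 0.0677) and passed it without nulliparous knockout replicate 4 (adjusted p = 0.0408). The 1 other kept probe of the interval and mark fell by 1.26 in wild-type, and that fall was called.

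A fall shared by several probes was seen at chr15:73455424-73477275 mark R. Probe A_30_P01019822 read -1.43, -1.65, -1.88 and -0.92 in nulliparous wild-type and -5.90, -4.80, -5.89 and -5.35 in lactating wild-type. It read -2.20, -1.38, -4.47 and -3.14 in nulliparous knockout and -5.17, -4.70, -4.19 and -5.61 in lactating knockout. No lactating wild-type array was well above background, and nulliparous knockout replicate 3 lay within the range of the lactating knockout values. The wild-type change was -4.01 ± 0.52 (adjusted p = 0.000122), fitted with lactating values below background, with a knockout change of -2.12 ± 0.52 (adjusted p = 0.00521), and the 4 other kept probes of the interval and mark changed by -3.65 to -0.53 in wild-type, all called lower. Among them, A_30_P01023396 fell at least 3.80-fold in knockout (adjusted p = 0.000623), with 1 nulliparous wild-type value dropped as an outlier spot. The wild-type change of -3.65 was that of A_30_P01023396. It passed the background rule only through nulliparous wild-type, so its wild-type call is no support.

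Other falls named in wild-type were of probes A_30_P01026974 (chr5:152006587-152008784 mark R) and A_30_P01020171 (chr14:65720392-65769859 mark R). The first fell by 3.80 ± 1.02 (adjusted p = 0.00713), but its lactating arrays split into -2.09, -6.25, -7.11 and -2.53. Its change was -2.93 without lactating wild-type replicate 3 and -4.60 without replicate 1. The second fell by 3.36 ± 0.57 (adjusted p = 0.000434) from 0.48 to 1.23 in nulliparous down to -2.78 to -2.31 in lactating wild-type mice, and in lactating knockout 1 of 4 arrays stayed at 0.21 while the others read -2.74 to -2.17. In knockout, falls were also named for A_30_P01019593 (chr2:181650800-181669350 mark F, at least 8.27-fold), A_30_P01029133 (chr10:8606683-8665783 mark F, at least 8.62-fold), A_30_P01021569 (chr11:69184157-69201732 mark R, at least 2.89-fold) and A_30_P01030968 (chr16:3337275-3355950 mark F, a change of -3.07 and of -1.57 with normexp, 1 of 4 lactating knockout arrays being well above background), with adjusted p of 0.00689, 0.000706, 0.000436 and 0.00827. The 1 other kept probe of the interval and mark of A_30_P01029133 changed by -0.40 in knockout and was not called. That of A_30_P01030968 changed by -2.48 and was called. The 2 other kept probes of the interval and mark of A_30_P01019593 did not follow it, with knockout changes of 0.03 and 0.23. Its own change was -3.40 without nulliparous knockout replicate 2 and -4.99 without replicate 3, and that of A_30_P01030968 was -2.43 and -3.72.

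A set of bright falls shared 1 profile over the 16 arrays. Probe A_30_P01030381 at chr17:88225376-88238756 mark F read 4.29, 3.98, 3.81 and 4.20 in nulliparous wild-type and 0.76, 1.07, 0.74 and 1.10 in lactating wild-type. It read 4.20, 3.86, 4.48 and 2.29 in nulliparous knockout and 1.25, 1.63, 0.39 and 0.94 in lactating knockout. Neither genotype's groups overlapped, and nulliparous knockout replicate 4 lay between them. The changes were -3.16 ± 0.37 (8.91-fold lower, adjusted p = 0.000105) and -2.66 ± 0.37 (6.30-fold lower, adjusted p = 0.000501). The interval's 2 kept probes with mark R did not fall, at 0.05 and 0.37 in wild-type. With F probe A_30_P01030381 as reference, chosen after its values were seen, 17 members including itself had a correlation above 0.98 over the 16 arrays. They lay at 17 different loci on 11 chromosomes, 12 with mark F and 5 with mark R, and made up 0.324% of the members, against 28 NM_ probes (0.156%). As the choice by likeness largely fixes, all 17 were called lower in both genotypes, from -0.89 to -3.16 in wild-type and from -0.93 to -2.87 in knockout. The place of nulliparous knockout replicate 4 is shared by the same choice, with that array below the other 3 of its group for all 17 and above every lactating knockout array for 16. The reference probe was most like a probe of Rabgap1, a Rab GTPase-activating protein gene, among kept RefSeq probes (r = 0.999 over 16 arrays). These correlations share arrays, scaling and the lactation difference.

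**Figure D4:**
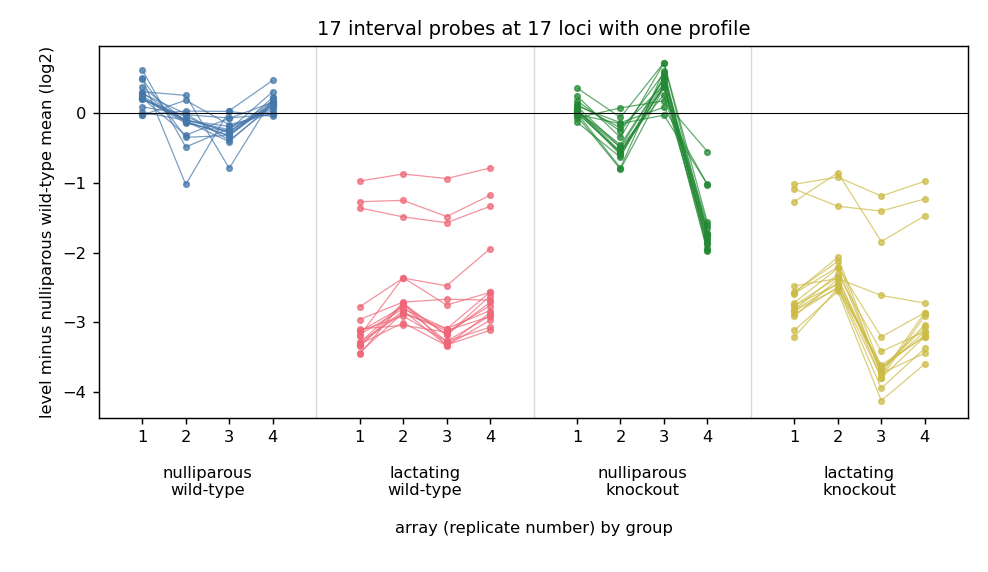
Level minus the probe's nulliparous wild-type mean (log2) for the 17 interval probes with a correlation above 0.98 to A_30_P01030381, on each of 16 arrays coloured by group, with lines joining the values of 1 probe within a group and no order meant among arrays. The lactating arrays lie below the nulliparous ones, and nulliparous knockout array 4 lies between.

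Probe A_30_P01028216 at chr4:33375464-33377138 mark R belonged to this set and was also among the largest falls in knockout. It read 3.81, 3.39, 4.17 and 1.88 in nulliparous knockout and 0.53, 1.07, -0.22 and 0.41 in lactating knockout, without overlap (change -2.87 ± 0.45, 7.30-fold lower, adjusted p = 0.000659). Its wild-type change was -2.96 ± 0.45 (adjusted p = 0.000231). The 2 other probes of its interval and mark on the array were not kept.

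Opposite changes on the 2 strand marks of 1 interval were clearest at chr4:98943050-98959998. Probe A_30_P01025695 (mark R, also of the shared profile) fell from 2.65, 2.40, 2.16 and 2.57 in nulliparous wild-type to -1.01, -0.27, -0.88 and -0.67 in lactating wild-type. Probe A_30_P01028660 (mark F) rose from -1.55, -1.63, -1.51 and -1.43 to -0.15, -0.39, -0.19 and -0.49. Neither pair of groups overlapped, and the changes were -3.15 ± 0.42 (adjusted p = 0.000136) and 1.22 ± 0.14 (adjusted p = 0.000105). In knockout they were -2.82 ± 0.42 (adjusted p = 0.00057) and 1.02 ± 0.14 (adjusted p = 0.000502). The 3 other kept F probes did not rise, at -0.57 to 0.06 in wild-type, and the other kept R probe fell by 1.13.

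The same was seen at chr12:77544397-77564122. There A_30_P01022466 (mark F) changed by -3.09 ± 0.39 (adjusted p = 0.000116) and A_30_P01018288 (mark R) by 1.26 ± 0.16 (adjusted p = 0.000125) in wild-type, and by -2.62 and 1.01 in knockout. Nulliparous knockout replicate 4 read 0.71 for the first probe, against 2.03 to 3.02 on the other 3 arrays. For the second it read 0.83, while the other 3 arrays read at most -0.0048. At chr14:33923944-34003394, A_30_P01031286 (mark F) changed by -3.13 ± 0.43 (adjusted p = 0.000156) and A_30_P01027511 (mark R) by 0.90 ± 0.14 (adjusted p = 0.000226) in wild-type, and by -2.22 and 0.72 in knockout. The other kept probes there went the other way in wild-type, with 0.67 for the 1 other F probe, which was called, and -1.01 to -0.45 for the 3 other R probes, of which 1 was called. In knockout that F probe changed by 0.60. At chr11:69184157-69201732 in knockout, A_30_P01032213 (mark F) rose by 1.18 ± 0.34 (adjusted p = 0.013) while A_30_P01021569 (mark R) changed by -3.18 ± 0.38. With normexp that rise was 0.19 (adjusted p = 0.185). Without nulliparous knockout replicate 1 it was 1.56.

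At 2 further pairs a call did not hold in every setting either. At chr6:35201798-35217831, A_30_P01019132 (mark R) fell by 0.63 ± 0.19 in wild-type (adjusted p = 0.014) against the rise of A_30_P01019266, and the fall was not called with median centring (adjusted p = 0.0605). At chr2:155269145-155303251, A_30_P01023519 (mark R) changed by -1.09 ± 0.42 (adjusted p = 0.0442). The size of that change rested on nulliparous wild-type replicate 3, which read 4.13 where the other arrays of its group read 1.48 to 1.91. Without that array the change was -0.46 and still called (adjusted p = 0.0135). The call was lost on leaving out any 1 of 11 other arrays, with adjusted p of 0.0512 to 0.0937.

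A set of 15 long non-coding RNA genes with names and probes on the array served for comparison, of which 13 were kept. In lactation 1 rose and 6 fell in wild-type, and 1 rose and 8 fell in knockout, with median changes of -0.34 and -0.55. Mhrt, an antisense transcript of the cardiac myosin heavy chain locus, changed by -0.77 ± 0.24 in wild-type (adjusted p = 0.0173) and -1.24 ± 0.24 in knockout (adjusted p = 0.00156). Malat1, an abundant nuclear RNA, changed by -1.33 ± 0.37 (adjusted p = 0.00817) and -1.03 ± 0.37 (adjusted p = 0.0341). Tug1 was the 1 that rose, by 0.35 ± 0.09 (adjusted p = 0.00572) and 0.33 ± 0.09 (adjusted p = 0.00928).

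The second question was which interval signals differed between knockout and wild-type ventricles. In nulliparous mice 5 members (0.0952%) were called, all higher in knockout, where 0.0938% of all kept probes were called. At an unadjusted p under 0.05 there were 327 of the 5250 members, against 2186 of all 28785 kept probes. Without nulliparous knockout replicate 4 there were 9 members called, the 5 among them, against 37 of all kept probes. All 5 were the F probes of 1 interval, chr3:96074625-96086375, which were all the F probes it has on the array. Probe A_30_P01027709 read -6.59, -6.40, -5.84 and -5.86 in nulliparous wild-type and 0.84, 0.68, -1.25 and -0.68 in nulliparous knockout. In lactation it read 0.17, -0.39, -0.03 and -0.01 in wild-type and -0.03, 0.34, 0.58 and 0.45 in knockout. The interval's F signal was therefore below background on the 4 nulliparous wild-type arrays and well above it on the other 12.

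For A_30_P01027709 nulliparous knockout exceeded nulliparous wild-type by 6.07 ± 0.37 (adjusted p = 1.07e-06), at least 20.2-fold, and lactating wild-type exceeded nulliparous wild-type by 6.11 ± 0.37 (adjusted p = 8.95e-07), at least 20.8-fold. These comparisons share the nulliparous wild-type arrays. Within the first and second slide the knockout difference was 7.26 (adjusted p = 0.000462) and 4.89 (adjusted p = 0.00116). With normexp the changes were 2.21 and 2.20, both called. The 4 other F probes had knockout changes of 3.27 to 4.98 in nulliparous mice, at least 4.61-fold to 18.5-fold, and lactation changes of 3.40 to 4.81 in wild-type. A_30_P01031568 lost its knockout call with normexp (0.80, adjusted p = 0.27). In knockout mice lactation changed the 5 probes by 0.26 to 0.61, none called (smallest adjusted p = 0.188). The kept R probe of the interval, A_30_P01027619, read -3.56 to -2.24 on all 16 arrays and was called in no comparison (smallest adjusted p = 0.0692), and the 4 other R probes were well above background on no array. Npr1 lies on chromosome 3 as well, per the gene table, and its probe checks no label, as given above.

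**Figure D5:**
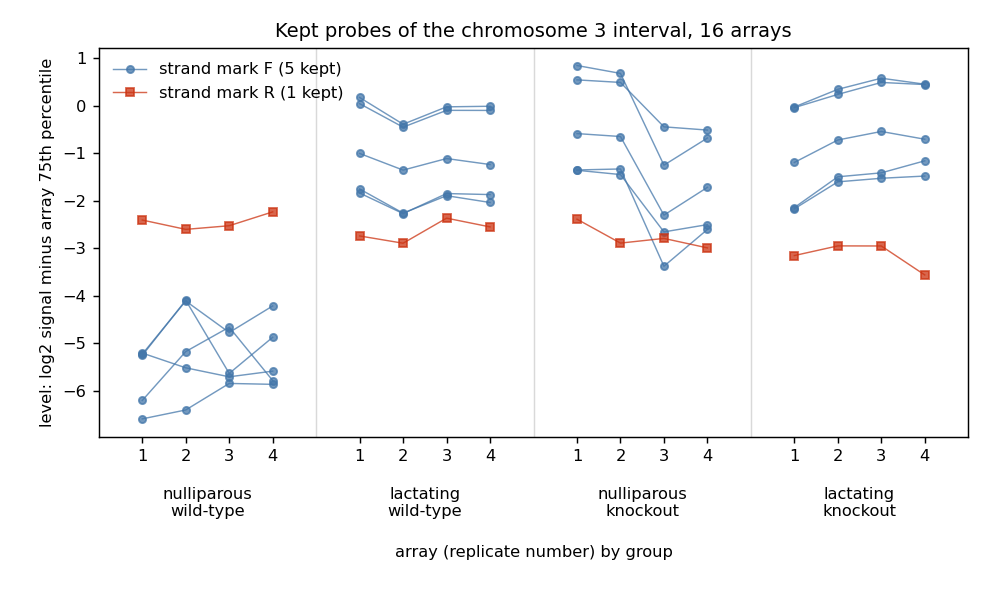
Levels (log2, relative to the 75th percentile) of the 6 kept probes of the chromosome 3 interval on each of the 16 arrays by group, with lines joining the values of 1 probe within a group and no order meant among arrays. The 5 probes marked F lie at or below -4.09 on every nulliparous wild-type array and at or above -3.38 on every other array, and the probe marked R stays between -3.56 and -2.24.

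In lactating mice 4 members (0.0762%) were called between genotypes, 1 higher and 3 lower in knockout, where 0.111% of all kept probes were called. At an unadjusted p under 0.05 there were 728 of the 5250 members, against 2793 of all 28785 kept probes. Probe A_30_P01023130 at chr15:32167516-32174417 mark R read -1.17, -1.77, -0.89 and -0.60 in lactating wild-type and 0.01, -0.06, 0.20 and 0.18 in lactating knockout, with nulliparous values of -0.74 to -0.31 in both genotypes. It was 1.19 ± 0.19 higher in knockout (2.28-fold, adjusted p = 0.0187), and the 3 other kept probes of the same interval and mark were 0.87 to 1.02 higher without being called. The call was lost without lactating wild-type replicate 1 (adjusted p = 0.0639) or lactating knockout replicate 1, 3 or 4 (adjusted p = 0.052, 0.0731 and 0.0855). It was also lost with only the lactating arrays in the fit (adjusted p = 0.120) and without a filter (adjusted p = 0.0558).

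Probe A_30_P01020959 at chr12:82495575-82516300 mark R read -0.96, -1.17, -1.31 and -0.91 in lactating wild-type and -1.90, -1.82, -1.72 and -1.998 in lactating knockout, and -2.01 to -1.63 in all 8 nulliparous mice. It thus stood higher only on the lactating wild-type arrays among these 16, with a genotype change of -0.77 ± 0.11 (1.70-fold lower, adjusted p = 0.00621). With only the lactating arrays in the fit the call was lost (adjusted p = 0.0637). The interaction was -0.73 ± 0.15 and not called (adjusted p = 0.202). The 2 other kept probes of its interval and mark did not share this, at -0.30 and -0.05.

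Probe A_30_P01033072 at chr5:124694137-124695689 mark R read 1.28, 1.28, 1.22 and 1.05 in lactating wild-type and 0.63, 0.53, 0.51 and 0.33 in lactating knockout, without overlap (change -0.71 ± 0.10, 1.64-fold lower, adjusted p = 0.00677). In lactation it rose by 0.33 ± 0.10 in wild-type (adjusted p = 0.014) and fell by 0.34 ± 0.10 in knockout (adjusted p = 0.0139), and the interaction of -0.67 ± 0.14 was not called (adjusted p = 0.214). Probe A_30_P01025847 at chr16:34524589-34573439 mark F was 0.60 ± 0.10 lower in knockout, at -3.46 to -3.14 against -2.76 to -2.58 (adjusted p = 0.0278). It lost its call with normexp (-0.28, adjusted p = 0.258) and on leaving out any 1 of 8 arrays. Without nulliparous knockout replicate 4, which is in neither lactating group and enters the shared estimate of spread, 42 members were called, 11 higher and 31 lower, the same 4 among them. Of all 28785 kept probes 123 were then called. Without lactating wild-type replicate 4 there were 14 members called, without lactating knockout replicate 2 there were 22, and without nulliparous knockout replicate 3 there were 8. Of all kept probes 48, 78 and 48 were called in those fits. Leaving out lactating wild-type replicate 1, or lactating knockout replicate 3 or 4, left 2 members, where 29, 26 and 20 of all kept probes were called.

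The third question was where the lactation change itself differed between genotypes. In the interaction 4 members (0.0762%) were called, where 0.0695% of all kept probes were called. At an unadjusted p under 0.05 there were 372 of the 5250 members, against 1747 of all 28785 kept probes. All 4 called members were F probes of chr3:96074625-96086375. The differences were -5.67 ± 0.53 for A_30_P01027709 and -4.55 ± 0.43 for A_30_P01022407 (adjusted p = 0.000247 for both), -3.17 ± 0.48 for A_30_P01028385 (adjusted p = 0.0258) and -2.88 ± 0.48 for A_30_P01032113 (adjusted p = 0.043). The signal was called higher in lactation in wild-type, while in knockout it was well above background before lactation and no lactation change was called. The first pair of calls held on leaving out any array, while that of A_30_P01028385 was lost without any 1 of 9 arrays and that of A_30_P01032113 without any 1 of 14. With normexp only A_30_P01022407 among the 4 stayed called (-1.54, adjusted p = 0.0374). Without nulliparous knockout replicate 4 the interaction had 9 called members at 3 loci, and without lactating knockout replicate 2 it had 7. Of all kept probes 25 and 18 were called in those fits. The interaction had 2 called members without any 1 of 8 further arrays, where 9 to 13 of all kept probes were called.

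Some members read at 2 levels within a group. A gap of over 3 log2 units between neighbouring arrays of 1 group was found for 56 members at 47 loci (1.07%), against 135 NM_ probes (0.749%), and 17 members had such a gap in more than 1 group. The nulliparous wild-type group held such a gap for 33 members, lactating wild-type for 12, nulliparous knockout for 16 and lactating knockout for 14. Probe A_30_P01031943 at chr17:22420025-22457650 mark R read -2.03, -1.20, -0.13 and -6.04 in nulliparous wild-type, -1.19, -1.30, -1.45 and -1.43 in lactating wild-type, -6.53, -6.25, -6.19 and -1.84 in nulliparous knockout and -1.02, -5.17, -2.25 and -1.23 in lactating knockout. Each group other than lactating wild-type thus held both present and absent arrays.

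Probes A_30_P01032727 at chr16:9249688-9275013 mark R and A_30_P01024390 at chr17:80133213-80144417 mark F had nearly the same pattern. The first read -4.98, -5.94, -0.02 and -5.77 in nulliparous wild-type and -2.45, -3.37, -0.66 and -6.40 in lactating wild-type. The second read -3.01, -3.85, 1.71 and -2.57, and then -0.50, -1.29, 0.56 and -6.17. For both, nulliparous wild-type replicate 3 was high and lactating wild-type replicate 4 low, and no comparison was called over both slides. Within the first slide both lactation comparisons were called for both probes, at 2.55 and 2.42 for A_30_P01032727 and 2.53 and 3.45 for A_30_P01024390. Within the second the changes had the opposite sign, at -0.63 and -1.05 and at -2.38 and -0.95, and none was called.

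Present and absent states between whole groups were counted as well. From below background on all 4 nulliparous wild-type arrays to well above it on all 4 lactating wild-type arrays went 103 of the 5250 members, and the reverse held for 18. Among the 18023 kept NM_ probes, a set of larger size, these counts were 195 and 9. In knockout they were 14 and 19 members, against 51 and 5 NM_ probes. Nulliparous knockout replicate 4 is 1 of the 4 arrays that must agree there. A member kept only through its high group had to differ, so these counts describe the arrays and support no change. In all, 512 of the 5250 members were kept through 1 group only, 50 through nulliparous wild-type, 225 through lactating wild-type, 153 through nulliparous knockout and 84 through lactating knockout. Of the 18023 kept NM_ probes, 538 were kept through 1 group only.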

How the data were processed

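Cy3-labelled cRNA from 200 ng of total RNA of 16 mouse ventricles was read on 16 one-colour arrays, per the labels' protocols. The authors deposited scanner intensity values per spot, written by Agilent Feature Extraction 10.7.3.1 on build mm9 per the file headers. They also deposited a log2 value table, which matched the scanner values after centring on the nulliparous wild-type mean (r = 1 on each array over 24445 probes); its column medians were -0.382 to 0.0318, and its scaling is not given in the sources used here. All columns were mapped to samples.

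The processed signal was put on a log2 scale, spots of a probe were averaged, outlier spots dropped and the array's 75th percentile subtracted. Probes well above background on all 4 arrays of a group were kept. limma 3.58.1 in R 4.3.3 (with version 1.17.8 of data.table, and pandas 2.3.3 and matplotlib 3.10.9 for tables and plots) fitted 4 group means to all 16 arrays, with 12 residual degrees of freedom, and Benjamini-Hochberg adjustment ran over 28785 probes. The fit was tested on simulated data. Where a group was below background on every array, the fold is the bright group's mean against, per array, the higher of the lowest signal well above background and the probe's own value. The number of arrays limits the precision.

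Named were, for each comparison, up to 6 rises and 6 falls of largest change whose groups did not overlap, 1 probe per locus; the 6 interaction calls with the smallest p, of which there were 4; the 6 loci with most kept probes; and the 6 widest pairs with opposite strand marks. Chromosome 18 was left out of the naming. Members and lists were chosen with earlier results of these data known. The shared profile and the probes at 2 levels were chosen after their values were seen. Alternatives were normexp, quantile and median scaling, other filters, variance models, array weights, replicate and slide blocks, locus means, the deposited log2 table, only the groups compared, and leaving out each array. Fits within each slide were added after seeing the data. Same-numbered replicates had deviations with a median r of 0.03 to 0.07, from a lowest of -0.15 to a highest of 0.18, and not every pair was over 0.1, so they were not taken as pairs.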

Additional observations from a re-analysis of the deposited data

Results flagged for a closer look

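In 12 of 156 checks of a named probe in a group, 1 array lay farther from the others than Dixon's 95% limit for 4 samples. Chance alone gives about 1 such array in 20 checks. In nulliparous wild-type these were array 3 for A_30_P01018593 at -5.37 and array 3 for A_30_P01023519 at 4.13. In lactating wild-type they were array 2 for A_30_P01019266 at -4.45, for A_30_P01029133 at -5.22 and for A_30_P01031568 at -2.27, and array 1 for A_30_P01030968 at -3.39. In nulliparous knockout they were array 3 for A_30_P01029748 at -6.45, and array 4 for A_30_P01021569 at -1.86 and for A_30_P01018288 at 0.83. In lactating knockout they were array 3 for A_30_P01026974 at -5.20 and for A_30_P01031286 at -5.23, and array 2 for A_30_P01023201 at -1.999. Values at or below background have no order among themselves.

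The lactation change differed between genotypes, by limma's interaction term, at 4 probes of 1 chromosome 3 interval. The differences were -5.67 for A_30_P01027709, -4.55 for A_30_P01022407, -3.17 for A_30_P01028385 and -2.88 for A_30_P01032113.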

How the results depend on the processing

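Counts of called members are given against 2162 (wild-type lactation), 2239 (knockout lactation), 5 (genotype, nulliparous), 4 (genotype, lactating) and 4 (interaction). Leaving out each array in turn gave 1868 to 2324, 1752 to 2635, 5 to 9, 2 to 42 and 2 to 9. Without a filter, over 15617 interval probes, wild-type lactation had 5634 calls, of which 12.8% were higher, and the interaction 2. Of all non-control probes 22516 and 8 were called in that fit, and 32.0% of the 22516 were higher. With only probes well above background on all 16 arrays limma called 0 between nulliparous genotypes and 0 in the interaction, where 206 and 238 had an unadjusted p under 0.05; that filter removes the chromosome 3 probes by construction. Array weights gave 21, 81 and 17 for the last 3 comparisons, against 123, 294 and 54 of all kept probes. Normexp gave 13 between lactating genotypes, 9 of them higher, and 2 in the interaction, against 63 and 15 of all kept probes. Trend and robust variance gave 7 in the interaction, against 25 of all kept probes. Only the groups compared gave 8 between lactating genotypes, against 41 of all kept probes. Locus means were taken within each strand mark, so a locus can count more than once. Over 1939 such means the calls were 736, 790, 1, 1 and 1. Within the second slide there were 36, 1, 10 and 2 in the first 4 comparisons, and within the first 2 between lactating genotypes. The replicate block gave 2252, 2286, 5, 7 and 3 calls, against 14026, 12746, 16, 41 and 10 of all kept probes. Median centring made 3 of 5 calls between lactating genotypes higher, against 51.4% of 35 calls over all kept probes. With normexp A_30_P01028400 turned from a rise to -0.021 in knockout lactation. Over the named probes 1671 alternatives kept direction and side of the threshold, 15 changed sign where no call was made, 136 lost the call, 15 gained one and 1 turned a called rise. Beyond the values given here and above, the cause of a change was not tested. Signal near background limits the dimmest members.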
